A study of Mus musculus with 4 samples.

Results

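The open chromatin around 10 genes for chemokines, the secreted proteins with which macrophages attract other leukocytes, was examined in oxLDL-treated macrophages with and without esculetin. The genes were Ccl2, Ccl3, Ccl4, Ccl5, Ccl7, Ccl9, Ccl22, Cxcl1, Cxcl2 and Cxcl10. They were picked by name, not by a measured value, from the 49943 genes of a RefSeq table, though with earlier results of these data known. For each gene, all ATAC-seq peaks were read from 10 kb before its 5′ end to 10 kb past its 3′ end, and a peak lying in several windows was counted once. This gave 20 peaks, which formed 14 of the 36037 regions of all libraries. ATAC-seq marks accessible DNA, since the transposase Tn5 inserts adapters where chromatin is open. The cells were wild-type RAW264.7, an established mouse macrophage line. Every culture was given 25 ug/mL DIL-oxLDL, oxidized low-density lipoprotein with a fluorescent dye, for 24 h, with DMSO in the control group (n = 2) or 40 ug/mL esculetin, a plant coumarin, in the esculetin group (n = 2). The labels do not say whether the libraries of a group came from separate cultures, so the spread between them may be technical.

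Chemokines act through G protein-coupled receptors on the cells they attract. Those of the CC class, such as CCL2, CCL3 and CCL5, draw mainly monocytes, T cells and dendritic cells, and CXCL1 and CXCL2 draw neutrophils. In macrophages many of these genes are silent or weakly active at rest and are induced within hours by inflammatory signals, through NF-κB and, for Cxcl10, through interferon regulatory factors. Their genes lie in clusters, with Ccl2 and Ccl7 in one part of chromosome 11, Ccl5, Ccl9, Ccl3 and Ccl4 in another, Cxcl1, Cxcl2 and Cxcl10 on chromosome 5, and Ccl22 alone of this set on chromosome 8.

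The lists differed in length, from 8581 peaks in esculetin replicate 1 and 12680 in esculetin replicate 2 to 19475 and 27731 in control replicates 1 and 2. Strength is therefore given as a percentile, the share of peaks in the same list with a lower −log10 p, and as a rank from the top. Both depend on the list: a longer list lifts the percentile of a given rank. Summit coverage, the number of overlapping fragments at the peak's top, was solved from the listed fold and p, and is given over the library's genome-wide background (6.51 and 4.08 fragments for the controls, 4.97 and 4.1 with esculetin). Of 10 macrophage markers, 4 and 5 had a peak at the promoter in the controls (37.3% and 38.8% of all coding genes), and 1 and 4 with esculetin (27.9% and 34.9%). Spi1, the macrophage factor PU.1, had one in all 4 libraries, whereas Adgre1, Itgam, Csf1r and Mpeg1 had none. No marker of T cells, B cells, kidney epithelium or fibroblasts (5 each) had one. Control replicate 2 stood apart by its peaks at gene 3′ ends. Summits within 1 kb of the 3′ end of a coding gene, and not of a 5′ end, made up 3.93% of its list (95% interval 3.71 to 4.17), against 2.01% for the other control and 1.17% and 1.18% with esculetin.

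The chemokine windows held fewer peaks in the esculetin libraries. The controls had 5 and 10 peaks (replicate 1 and replicate 2), and the esculetin libraries had 1 and 4. The mean number of peaks per window was lower with esculetin over all coding genes too, at 1.08 and 1.54 in the controls and 0.554 and 0.768 with esculetin. For the 10 genes, with shared peaks counted for each gene, it was 0.7 and 1.4 against 0.2 and 0.5. At least 1 peak lay within 10 kb of 4 and 6 of the 10 genes in the controls (58.3% and 63.2% of all 21426 coding genes) and of 2 and 5 with esculetin (42.1% and 52.0%). In replicate 2 of both groups the count was within 1 gene of that background. These counts take genes at their RefSeq extent, which for Ccl4 starts inside Ccl3. With Ccl4 at its shorter GENCODE length they were 3 and 6 in the controls and 1 and 4 with esculetin. The mean numbers of peaks in the chemokine windows were 7.5 ± 3.54 and 2.5 ± 2.12 (SD, n = 2 each). The groups differed by -5 peaks and did not overlap, which was also so for the mean over all coding genes. The difference was -2.5 without control replicate 2. It was also -2.5 without peaks at gene 3′ ends, an alternative chosen after seeing the data. The peak lists of the libraries were of unequal length. As a share of the list the groups did overlap. The windows held 0.0257% and 0.0361% of the peaks of the control libraries, and 0.0117% (95% interval 0.000295 to 0.0649) and 0.0315% (0.0086 to 0.0807) of those of the esculetin libraries. The share in esculetin replicate 2 thus lay between the controls. With the 8581 strongest peaks of each library, 2 and 3 peaks remained in the control libraries and 1 in each esculetin library. No p-value is given for these sums over chosen genes, and for a single value an exact permutation test with n = 2 per group has 0.33 as its lowest two-sided p.

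None of the 14 regions was called in all 4 libraries, against 17.2% of all regions. A single library held 10 of the 14, compared with 56.3% of all regions. Of these, 6 were called in control replicate 2 alone (35.1% of all regions), 2 in control replicate 1 alone (12.2% of all regions) and 2 in esculetin replicate 2 alone (6.89% of all regions). The other 4 were called in control replicates 1 and 2 (1 region; 13.9% of all regions), in both controls with esculetin replicate 1 (1 region; 1.13%), in both controls with esculetin replicate 2 (1 region; 6.11%), and in control replicate 2 with esculetin replicate 2 (1 region; 1.34%). No region was called in both esculetin libraries and neither control, a class that holds 0.832% of all regions. Because the planned comparison of percentiles needed a region called in every library, it gave no value within 10 kb.

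**Figure D1:**
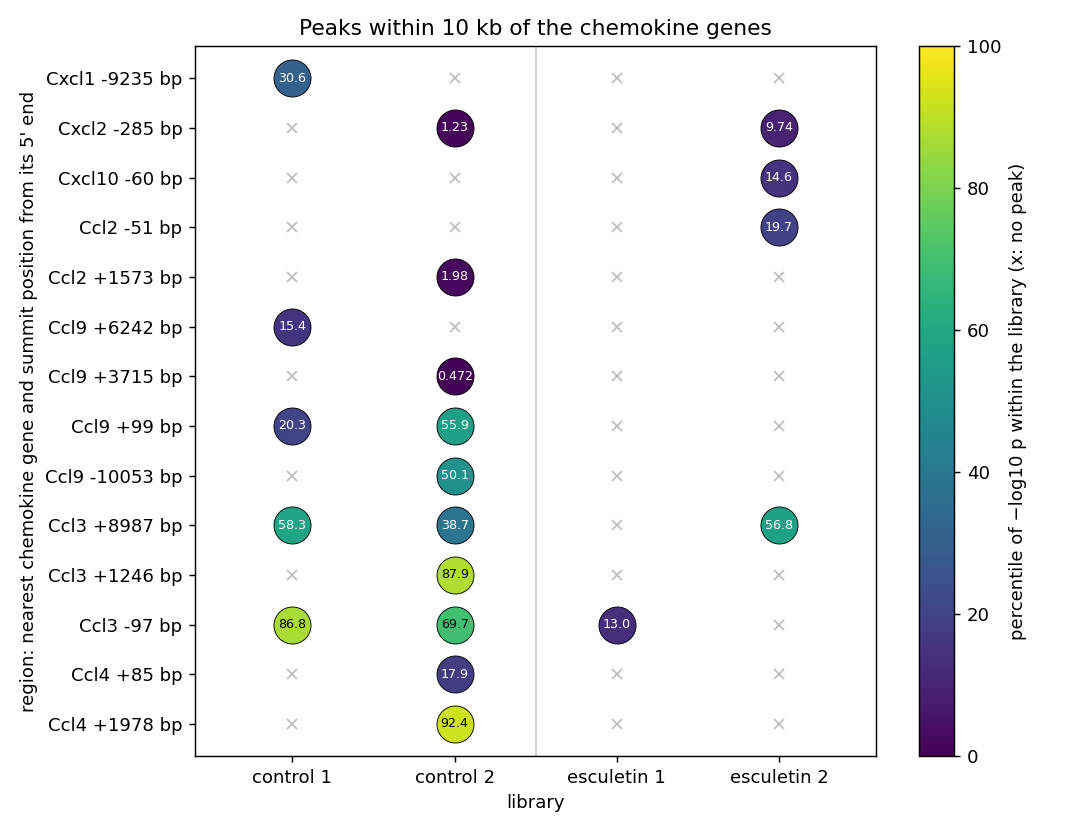
Within-list percentile of −log10 p (number and color) of each of the 14 regions (rows, named by the nearest chemokine gene and the summit's distance in bp from its 5′ end, positive in the direction of transcription) in the 4 libraries (columns). Crosses mark libraries without a peak: no row is filled in all 4 columns, and control replicate 2 fills 10 rows.

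At the 5′ ends, 6 of the 10 genes had a promoter peak in at least 1 library (summit within 1 kb of the 5′ end), and 4 had none, against 56.4% of all coding genes with none. Promoter peaks were found at 2 and 4 genes in the controls, where 37.3% and 38.8% of all coding genes had one, and at 1 and 3 with esculetin, against 27.9% and 34.9%. Control replicate 1 had promoter peaks at Ccl3 and Ccl9, control replicate 2 at Ccl3, Ccl4, Ccl9 and Cxcl2, esculetin replicate 1 at Ccl3 alone, and esculetin replicate 2 at Ccl2, Cxcl2 and Cxcl10. The esculetin libraries shared no promoter call among these genes, and no gene had one in both of them and in neither control (0.411% of all coding genes). None had one in all 4 libraries, as 24.8% of all coding genes did, so at least that share of coding genes had one in both esculetin libraries. Control replicate 2 and esculetin replicate 2 shared Cxcl2.

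The DNA before these starts is shown for 5 genes. They are the 4 genes with both a promoter peak and a listed sequence, and Cxcl1, whose promoter had no peak but carries the same site as Cxcl2. Each line gives the 250 bases that precede the 5′ end (GRCm38.p6, RefSeq), read 5′ to 3′ on the gene's strand, with matches to the motifs below in capitals.
Ccl3 (chr11:83649379-83649628, minus strand): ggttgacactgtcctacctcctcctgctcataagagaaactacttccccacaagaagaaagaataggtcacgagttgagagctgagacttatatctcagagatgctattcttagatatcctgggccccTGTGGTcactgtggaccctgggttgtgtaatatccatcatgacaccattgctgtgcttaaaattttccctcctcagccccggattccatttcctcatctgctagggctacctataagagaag
Ccl9 (chr11:83578637-83578886, minus strand): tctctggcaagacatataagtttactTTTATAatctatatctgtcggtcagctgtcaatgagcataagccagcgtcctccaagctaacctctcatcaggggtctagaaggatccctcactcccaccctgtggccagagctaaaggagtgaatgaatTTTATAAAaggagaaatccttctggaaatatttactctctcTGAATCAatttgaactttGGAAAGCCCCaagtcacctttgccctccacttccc
Cxcl10 (chr5:92348890-92349139, minus strand): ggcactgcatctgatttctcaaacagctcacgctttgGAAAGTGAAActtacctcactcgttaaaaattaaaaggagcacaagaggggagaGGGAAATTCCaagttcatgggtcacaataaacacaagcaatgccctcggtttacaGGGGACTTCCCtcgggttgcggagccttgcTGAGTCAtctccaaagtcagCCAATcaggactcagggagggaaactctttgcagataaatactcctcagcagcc
Cxcl2 (chr5:90903649-90903898, plus strand): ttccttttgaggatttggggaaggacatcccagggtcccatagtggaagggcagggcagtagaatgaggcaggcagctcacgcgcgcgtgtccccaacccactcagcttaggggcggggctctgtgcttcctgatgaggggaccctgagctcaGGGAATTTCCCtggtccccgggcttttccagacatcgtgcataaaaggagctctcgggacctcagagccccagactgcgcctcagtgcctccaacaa
Cxcl1 (chr5:90890995-90891244, plus strand): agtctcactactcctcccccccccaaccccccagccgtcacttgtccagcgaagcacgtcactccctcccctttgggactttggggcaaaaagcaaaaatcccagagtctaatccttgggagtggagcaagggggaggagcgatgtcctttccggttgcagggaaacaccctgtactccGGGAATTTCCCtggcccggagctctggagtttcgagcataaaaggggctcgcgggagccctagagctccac

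The 8 motifs searched on both strands were the NF-κB site, AP-1 (TGANTCA), C/EBP (TTGCNNAA), PU.1 (GAGGAAGT), RUNX (TGTGGT), NFY (CCAAT), ISRE (bound by interferon regulatory factors) and the TATA box (TATAAA). Sequences were listed for 6 of the genes: these 5 and Ccl22. Ccl2, Ccl4, Ccl5 and Ccl7 were not listed. The NF-κB site was matched in 4 of the 6 (Cxcl1, Cxcl2, Cxcl10 and Ccl9), while 7.25% of all 32851 listed promoters held a match. In Cxcl1 and Cxcl2 the match was the same run, GGGAATTTCCC, which reads as a site on both strands, starting 71 and 97 bases before the 5′ end, respectively. Cxcl10 held the most kinds, with NF-κB matches starting 159, 104 and 103 bases before its start (the last pair overlap), an AP-1 match, an NFY match and an ISRE match. The AP-1 motif was matched in Cxcl10 and Ccl9 (6.75% of all promoters), the ISRE in Cxcl10 (2.98%), NFY in Cxcl10 (33.8%), the TATA box in Ccl9 (12.4%; 2 of its 3 matches overlap) and RUNX in Ccl3 (14.0%). No match to the C/EBP or PU.1 letters lay in these windows (9.56% and 2.44% of all promoters). A match of letters is a description and not a bound site.

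Ccl3 encodes the inflammatory chemokine MIP-1α, and its promoter was, among the 10 genes, the start called in the most libraries, 3 of 4. The region (chr11:83649137-83649890, mm10) was called in both controls and in esculetin replicate 1. Its percentile was 86.8 and 69.7 in the controls and 13.0 in esculetin replicate 1, with summits 97 bases before, 93 bases after and 39 bases before the 5′ end. The peak was thus among the stronger ones of control replicate 1 and among the weaker ones of esculetin replicate 1. By rank the order was another, at 2561 in control replicate 1, then 7465 in esculetin replicate 1, then 8406 in control replicate 2. Summit coverage was 52 fragments in control replicate 1, or 7.99 times the background (95% interval 5.97 to 10.5), and 44 in control replicate 2, or 10.8 times (7.84 to 14.5). In esculetin replicate 1 it was 24, or 4.83 times (3.1 to 7.19), so its interval overlapped that of control replicate 1 and lay below that of control replicate 2. Esculetin replicate 2 had no peak there. Its weakest peaks on the genome-wide background had 13 fragments, or 3.17 times that background, and the local background at Ccl3 was higher than the genome-wide value in all 3 libraries with a call (8.98, 8.14 and 6.72 fragments), which raises the coverage a call needs. The RUNX letters of the printed sequence lay inside all 3 peaks, 25 and 215 bases from the summits in the controls and 83 in esculetin replicate 1.

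A region 7452 to 7472 bp past the 3′ end of Ccl3 (chr11:83640188-83640599), in no gene of the RefSeq table, was the other site called in 3 libraries. Its percentiles were 58.3 and 38.7 in the controls and 56.8 in esculetin replicate 2. The esculetin value lay between the controls. By rank it stood at 5475 in esculetin replicate 2, above 7923 and 16997 in the controls, and its coverage of 7.32 times the background (4.94 to 10.4) overlapped the intervals of 5.07 (3.49 to 7.12) and 5.88 (3.77 to 8.75). Esculetin replicate 1 had no peak there. At this locus the esculetin libraries therefore split, replicate 1 with a call at the Ccl3 promoter alone and replicate 2 with a call at the downstream site alone, while both controls had both.

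Ccl4 encodes MIP-1β, the close relative of MIP-1α. The RefSeq extent of Ccl4 is 16060 bp long and starts inside Ccl3, and a predicted transcript is listed for it. GENCODE gives the gene 2127 bp, so its 5′ end was placed 2127 bp before its 3′ end, at position 83662557. Control replicate 2 alone had a peak there (chr11:83662469-83662701), 85 bp after that start, at percentile 17.9. It also had the strongest peak of the whole set at the other end of the gene (chr11:83664253-83664704), 148 bp before the 3′ end, with percentile 92.4, 62 fragments and 15.2 times the background (11.7 to 19.5). A similar peak of that library lay over the 3′ part of Ccl3 (chr11:83647855-83648487), 289 bp before its 3′ end, at percentile 87.9 and 14.2 times the background (10.8 to 18.4). Both had more coverage than the Ccl3 promoter in the same library, with overlapping intervals, and neither was called in another library. Together with peaks 302 bp before the 3′ end of Ccl2 (percentile 1.98) and 803 bp before that of Ccl6 (percentile 50.1), 4 of the 10 peaks of control replicate 2 lay within 1 kb of a gene's 3′ end and not of a 5′ end. The same count was 1 of 5 in control replicate 1 and 0 in both esculetin libraries. The higher share of such peaks in the whole list of control replicate 2 goes with these calls, and its part in them was not tested.

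**Figure D2:**
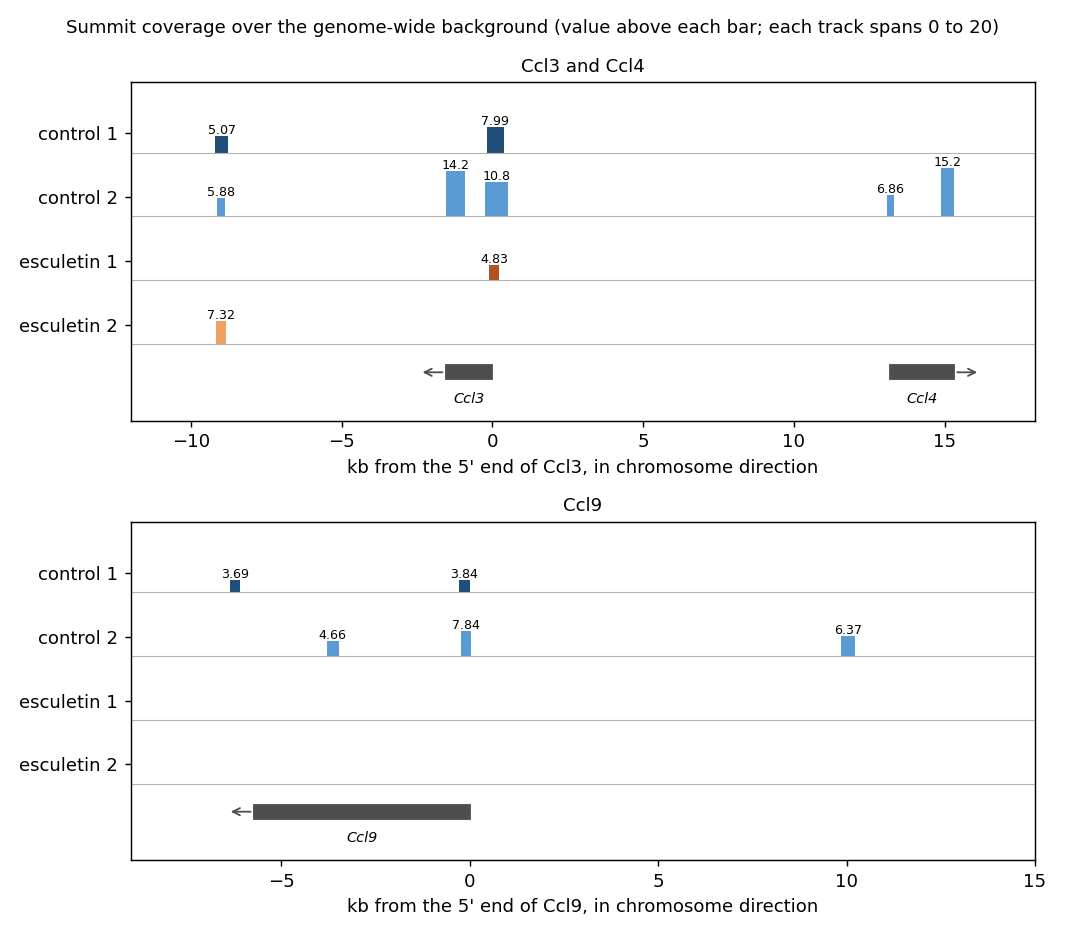
Peaks of the 4 libraries around Ccl3 and Ccl4 (top) and Ccl9 (bottom) against the distance in kb, in chromosome direction, from the 5′ end of Ccl3 or Ccl9; bar height and the printed value give summit coverage over the genome-wide background, grey boxes the genes and arrows the direction of transcription. Control replicate 2 has its tallest bars, 14.2 and 15.2, at the 3′ ends of Ccl3 and Ccl4, and the Ccl9 panel has no esculetin peak.

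Ccl9, which encodes a CC chemokine made constitutively by many myeloid cells, was the only gene of the 10 whose promoter was called in both controls and in no esculetin library, a pattern found in 3.35% of all coding genes. The region (chr11:83578355-83578668) had percentile 20.3 in control replicate 1 and 55.9 in control replicate 2, with summits 104 and 99 bp after the 5′ end. The summits lay 5 bp apart. Coverage was 3.84 times the background (2.49 to 5.67) in control replicate 1 and 7.84 times (5.37 to 11.1) in control replicate 2, with intervals that just overlapped. In the esculetin libraries the nearest summits to this start lay 70781 and 38162 bp away. The weakest peaks called on the genome-wide background reached 3.02 and 3.17 times it in esculetin replicates 1 and 2. A signal as strong as in control replicate 2 would thus exceed that limit, and one as strong as in control replicate 1 had an interval that reached below it. The local background at Ccl9 was above the genome-wide value in control replicate 2 (5.7 against 4.08 fragments) and equal to it in control replicate 1. A higher local background raises the coverage a call needs, and that of the esculetin libraries at Ccl9 is not known. With the 8581 strongest peaks of each library, no chemokine region was left in both controls alone. The AP-1 and TATA letters before the Ccl9 start lay outside both peaks. Of the 10 bases of the NF-κB match, 7 lay inside the peak of control replicate 2 and 0 inside that of control replicate 1. Further single calls were a peak 523 bp past the 3′ end of Ccl9 in control replicate 1 (percentile 15.4), and in control replicate 2 a weak peak 3715 bp into the gene (percentile 0.472) and that in Ccl6, the neighbouring chemokine gene, where E230016K23Rik also lies.

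Fewer peaks in both esculetin libraries than in both controls were counted in the windows of Ccl3, Ccl4 and Ccl9, 3 of the 10 genes, against 19.7% of all coding genes. Ccl3 had 2 and 3 peaks in the controls and 1 in each esculetin library, Ccl4 at its RefSeq extent had 2 and 5 against 1 and 1, and Ccl9 had 2 and 3 against 0 and 0. Ccl3 and Ccl4 share most of these peaks. The window of the short Ccl4 gene held 0 and 2 peaks in the controls and 0 in each esculetin library, so that its groups overlapped and the count was 2 of 10. No window held more peaks in both esculetin libraries than in both controls, a pattern of 0.434% of coding genes.

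Regions called with esculetin and in neither control came from esculetin replicate 2 alone. They were the promoter peaks of Ccl2 and Cxcl10, at percentiles 19.7 and 14.6. Ccl2 encodes MCP-1, the main attractant of monocytes. Esculetin replicate 2 had a peak of 200 bp at its start (chr11:82035430-82035629), with the summit 51 bases before the 5′ end, percentile 19.7 and 19 fragments at the summit, 4.63 times the background (2.79 to 7.24). Control replicate 2 had only the peak near the 3′ end, and control replicate 1 and esculetin replicate 1 had no peak nearer than 489840 bp. The weakest peaks called on the genome-wide background reached 2.61 and 3.19 times it in control replicates 1 and 2. In esculetin replicate 1 they reached 3.02 times it. The interval of the Ccl2 peak lay above the limit of control replicate 1 and reached below those of control replicate 2 and esculetin replicate 1. Ccl7, which encodes the related MCP-3 and lies beside Ccl2, had no promoter peak in any library.

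Cxcl10 encodes IP-10, an interferon-induced attractant of activated T cells, and its start lies inside the gene Art3. Esculetin replicate 2 had a peak there (chr5:92348840-92349044), 60 bases before the 5′ end, at percentile 14.6 with 18 fragments, 4.39 times the background (2.6 to 6.94). This peak held the AP-1 and NFY letters and the NF-κB pair nearest the start, 14, 6 and 44 to 43 bases from the summit, and not the ISRE. Of the 10 bases of the NF-κB match farther upstream, 6 lay inside it. The other libraries had no peak within 10 kb, with nearest summits 17019 and 19342 bp away in the controls and 86371 bp away in esculetin replicate 1. The interval of the Cxcl10 peak reached below the call limits of all these libraries.

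Cxcl2 encodes MIP-2, a neutrophil attractant, and its promoter was called in 1 library of each group. The percentile was 1.23 in control replicate 2 and 9.74 in esculetin replicate 2, with summits 254 and 285 bases before the 5′ end. Coverage was 15 and 17 fragments, or 3.68 (2.06 to 6.06) and 4.15 (2.42 to 6.64) times the background, a difference well inside the counting error. Both peaks contained the NF-κB run of the printed sequence, 157 and 188 bases from their summits. Cxcl1, the neighbouring neutrophil attractant with the same run, had no promoter peak, and a single peak 9235 bp before its start in control replicate 1 (chr5:90881883-90882128, percentile 30.6).

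**Figure D3:**
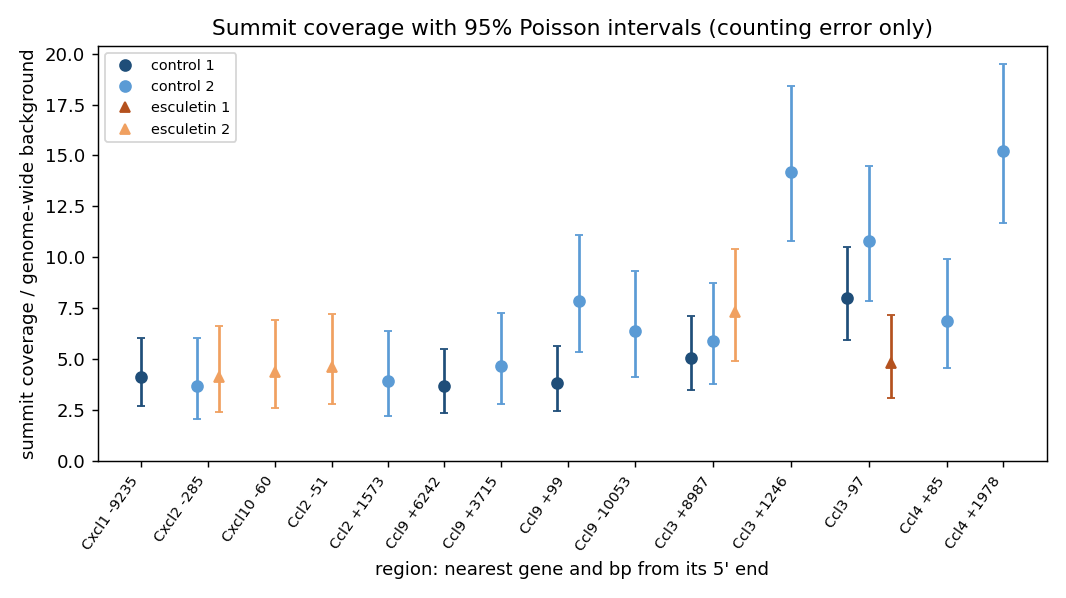
Summit coverage over the genome-wide background (y axis) of all 20 peaks, grouped by region (x axis, nearest gene and bp from its 5′ end), with 95% Poisson intervals as bars; circles are control and triangles esculetin libraries. The 3 esculetin replicate 2 promoter peaks lie between 4.15 and 4.63, and the 3′ end peaks of Ccl3 and Ccl4 in control replicate 2 at 14.2 and 15.2.

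Ccl5 and Ccl22 had no peak within 10 kb in any library, as was the case for 31.1% of coding genes. Ccl5 encodes RANTES, which attracts T cells and monocytes, and Ccl22 encodes MDC, which attracts regulatory and type 2 helper T cells. The nearest summits to the Ccl5 start lay 41876 and 43196 bp away in the controls and 57548 and 57456 bp away in the esculetin libraries. Those nearest to Ccl22 lay 34170 to 41575 bp away. Upstream of Ccl22 a region (chr8:94703956-94704403) beside the tRNA genes n-TLcag4 and n-TLcag5 was the single region within 50 kb of any of the 10 genes that all 4 libraries had. Its percentiles were 34.4 and 55.2 in the controls and 47.6 and 27.1 in the esculetin libraries. The groups overlapped (difference -7.41, two-sided exact permutation p = 0.667).

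**Figure D4:**
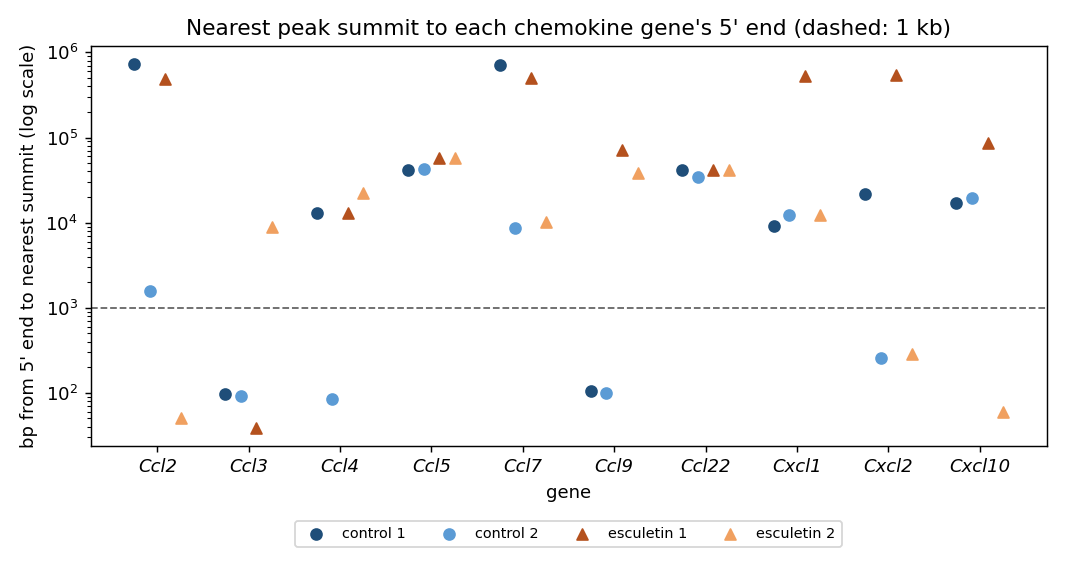
Distance in bp (log scale) from the 5′ end of each of the 10 genes (x axis) to the nearest peak summit in each library; circles are control and triangles esculetin libraries, and the dashed line is at 1 kb. Below the line lie 3 points for Ccl3, 2 each for Ccl9 and Cxcl2, and 1 each for Ccl2, Ccl4 and Cxcl10, and none for Ccl5, Ccl7, Ccl22 and Cxcl1.

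Wider windows of 50 kb added distal peaks mainly in the controls. They held 15 and 20 peaks in the controls and 2 and 6 with esculetin, or 0.077% and 0.0721% of the control lists and 0.0233% and 0.0473% of the esculetin lists, so that the shares did not overlap at this width. Peaks away from promoters were also the larger part of the whole control lists: promoter peaks made up 39.5% and 29.3% of them, against 61.9% and 53.3% with esculetin. The part of this difference in the 50 kb counts was not tested. Around Cxcl10 the counts were 6 and 4 in the controls and 0 and 1 in the esculetin libraries, and around Ccl22 they were 3 and 4 against 1 and 1. The cluster of Ccl5, Ccl9, Ccl3 and Ccl4 had 4 and 9 against 1 and 2. The groups overlapped around Cxcl1 and Cxcl2 (2 and 1 against 0 and 1) and around Ccl2 and Ccl7 (0 and 2 against 0 and 1). Gene by gene, 4 of the 10 genes had fewer peaks within 50 kb in both esculetin libraries than in both controls, a share close to the 36.5% of all coding genes that did.

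Among 24 other chemokine ligand genes, 1 had a promoter peak in each library (37.3% and 38.8% of all coding genes in the controls, 27.9% and 34.9% with esculetin), in all cases Ccl25, the thymus and gut chemokine, with percentiles of 90.0 and 77.0 in the controls and 80.6 and 87.4 in the esculetin libraries. The 2 groups overlapped there. A summit within 1 kb of the Ccl25 start may also belong to a neighbouring gene, which was not examined.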

How the data were processed

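The data were 4 lists of ATAC-seq peaks, each called by the authors in a single library. The authors called them with MACS2 on Bowtie2 alignments to mm10. Reads went through Trim-Galore before alignment, and Sambamba took out duplicate and ambiguously placed reads after it, per the study's methods. The peak caller's options, and whether read ends were shifted for the transposase, are not given in the sources used here. The authors' lists hold the fold enrichment of each summit (a ratio to the local background), its −log10 p, its −log10 q and a score made from the latter. The deposited lists hold no read counts, so the count model of the study was not run on them.

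From these, the percentile of each peak's −log10 p among the peaks of its own list was computed on chromosomes 1 to 19, X and Y, together with its rank from the top. Coverage at each summit was solved from the fold and p, which MACS2 takes from a Poisson distribution, and the solution was tested on simulated data. Its exact Poisson 95% intervals, like the exact Clopper-Pearson intervals of shares, cover counting error only. Peaks sharing at least 1 bp were merged into regions. Gene positions came from the RefSeq table of GRCm38.p6, whose main chromosomes are those of mm10. Strands were read from the RefSeq promoter table or, for genes not listed there, from GENCODE vM39, from which no coordinate was taken. Its gene length placed the 5′ end of Ccl4. The GENCODE length exceeded the RefSeq length for Ccl9 (9417 against 5720 bp), Ccl5 (9341 against 4741 bp) and Ccl22 (7102 against 5705 bp). These genes were kept at their RefSeq extent, so distances from their ends depend on that choice. Strands were found for 21426 of 21887 protein-coding genes (97.9%). A promoter peak had its summit within 1 kb of the 5′ end. Exons were not annotated, because no annotation of this build with exons was used here. Motifs were searched on both strands of the 250 bases before each start in the RefSeq promoter table.

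The text names all 10 genes, chemokine genes that reach into their windows, and genes with a 5′ end within 1 kb of a summit there. The genes, the lists and the motifs were chosen with earlier results of these data known. The list of chemokine receptor genes is not reported here. The tools were pandas 2.3.3 and NumPy 2.4.6 for tables, SciPy 1.17.1 for intervals and exact tests, and matplotlib 3.10.9 for figures, all under Python 3.11.15.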

Additional observations from a re-analysis of the deposited data

How the results depend on the processing

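The presence of a call is no measure of signal below the limit of the peak caller, and with 2 libraries per group, lists of unequal length and 20 peaks in all, single calls decide the counts. Within 10 kb the number of peaks was lower in the esculetin group by 5 on average, a difference of -5, which became -1.5 with equal numbers of top peaks, -13.5 in 50 kb windows and -2.5 (without control replicate 2) to -7.5 (without control replicate 1) when 1 library was left out. The share of the list in the windows, -0.00927 percentage points, changed sign without esculetin replicate 1 (0.000678, against -0.0192 without esculetin replicate 2) and, as an alternative chosen after seeing the data, without peaks at gene 3′ ends (0.000114). It was -0.0393 in 50 kb windows. The number of genes with a promoter peak differed by -1, and by -2 to 0 when 1 library was left out. Regions called in both controls only numbered 1, against 0 with equal numbers of top peaks, 6 in 50 kb windows and 2 (without either esculetin library) to 7 (without control replicate 1) when 1 library was left out. Regions called in every library numbered 0, 1 in 50 kb windows and 0 to 1 with 1 library left out, and regions of the esculetin group only 0, and 0 to 2 (without esculetin replicate 1). A limit at −log10 q of 2 could remove none of the 20 peaks, the lowest of which had 2.28, so their unchanged counts under it test nothing. The share became -0.0091 percentage points. In 2 kb windows the values stayed within the replicate spread or 1.5 times the count, except that the promoter genes were not run there. The same held with a 50% reciprocal overlap for the 3 region counts and a 2 kb promoter for the promoter genes. The comparison of percentiles over regions called in all 4 libraries gave no value within 10 kb under any setting that keeps all libraries. Of the alternatives chosen after seeing the data, the RefSeq start of Ccl4 left the promoter difference at -1, and leaving out peaks at gene 3′ ends gave -2.5 peaks. The cause of these shifts was not tested. The library names inside the peak lists number the esculetin libraries 2 and 3 while the titles number them 1 and 2, so the numbers do not pair libraries. Taken as a block with 1 library of each group per number, they give the mean differences above by arithmetic (-5 peaks, -0.00927 percentage points and -1 gene), which tests nothing. The differences within number 1 and number 2 were -4 and -6 peaks, -0.014 and -0.00451 percentage points, and -1 gene in both.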
